A study of Macaca mulatta with 9 samples.

Results

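CYP17A1, CYP19A1, HSD3B2, HSD17B1 and HSD17B8 are 5 genes for enzymes that make or interconvert androgens, oestrogens and progestins. They were chosen by exact gene symbol in the array annotation, which gave 6 probe sets among 52865 in the table, and 5 genes among 14132 with a symbol of their own. Expression was measured on 9 single-colour Affymetrix arrays in small antral follicles (SAFs) of young adult rhesus macaque females, at or near menses in the early follicular phase. The control group (3 arrays) ate a standard diet, the WSD group (3 arrays) a Western-style diet, and the WSD+T group (3 arrays) that diet with chronic T (testosterone), which raised androgen levels according to the labels. The dose and length of treatment were not used here. Follicles were chosen as presumptively healthy, and each array carried RNA from the SAFs of 1 ovary, 3.7 ± 0.3 follicles per ovary according to the labels, which do not say what kind of error this is. Granulosa cells, follicle wall, cumulus cells and oocyte were lysed together, so fewer cells of a type and less RNA per cell cannot be told apart in these values.

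In the ovary, steroid synthesis is divided between cell layers. Theca cells turn cholesterol into androgens, with CYP17A1 as the hydroxylase and lyase that commits progestins to androgen synthesis. HSD3B2 converts pregnenolone to progesterone and dehydroepiandrosterone to androstenedione, and is used in theca and, as follicles mature, in granulosa cells. Granulosa cells take up the androgens and make oestrogens from them with the aromatase CYP19A1 and with HSD17B1, which reduces oestrone to oestradiol. HSD17B8 oxidises oestradiol and is also part of the mitochondrial machinery of fatty acid synthesis.

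All 5 genes had their highest mean signal in control follicles, but the 3 groups were not ordered in the same way for each enzyme. After the diet alone, CYP17A1, HSD3B2 and HSD17B8 fell, but the result for HSD17B8 was lost under some settings and without some single arrays. After the diet with androgen, HSD3B2 fell 4.78-fold, and CYP17A1 had a mean signal between those of WSD and control. CYP19A1 was lowest in WSD+T, and on WSD arrays it overlapped control. HSD17B1 was below control on all 6 treated arrays, with 1 WSD array far below the rest.

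**Figure D1:**
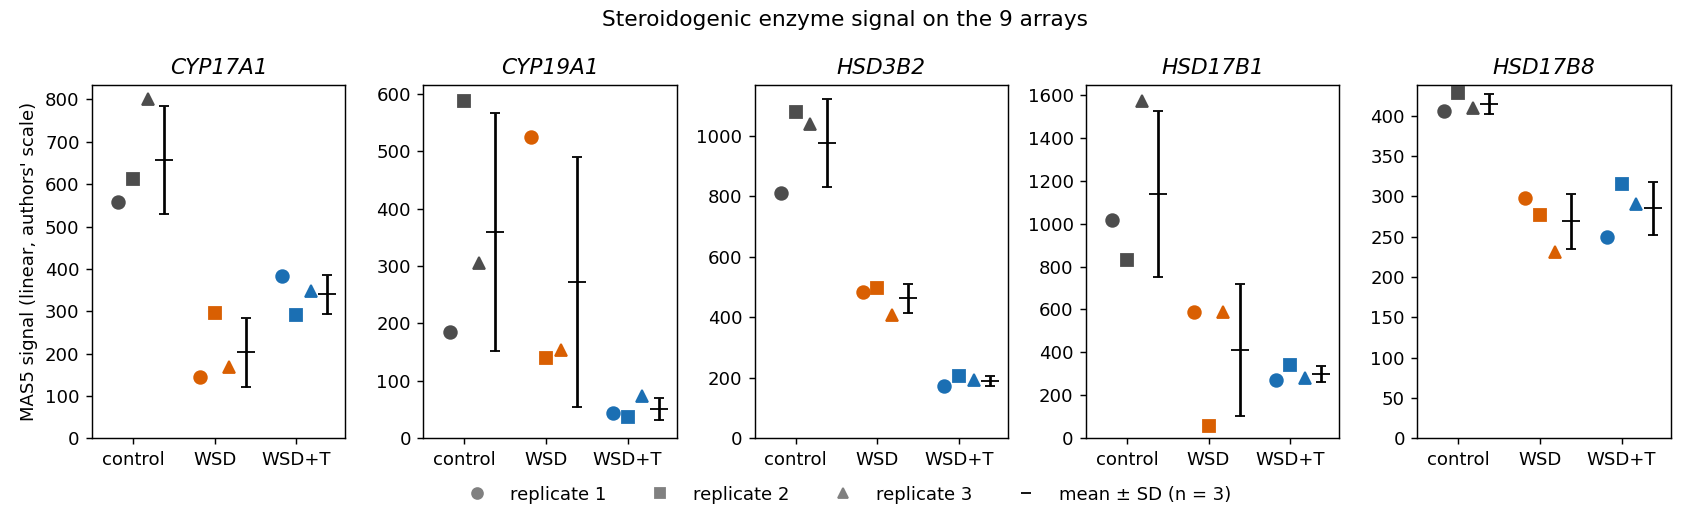
MAS5 signal (linear, on the scale the authors set) of the 5 enzymes in control, WSD and WSD+T follicles, with 1 point per array, a different symbol for each replicate and the mean ± SD of 3 arrays in black. HSD3B2 forms 3 separate steps (810.1 to 1077 in control, 408.0 to 497.9 in WSD, 172.4 to 206.9 in WSD+T), whereas CYP19A1 and HSD17B1 each have 1 WSD array far from the others of its group.

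The deposited values are MAS5 signals, a linear brightness per probe set. Every array as deposited had a mean signal, without its highest and lowest values, of 200.01. Median signals ran from 15.9 to 23.7, and the number of arrays limits the precision. Tests were run with limma on log2(signal + 16) for 26383 probe sets, and adjusted p-values are over all of them. On this scale the fold change of a low signal is understated, and a comparison passed when its adjusted p was under 0.05. Arrays within a group correlated at 0.949 to 0.961 in control, 0.862 to 0.949 in WSD and 0.985 to 0.993 in WSD+T, and the mean variance within a group was 0.152, 0.330 and 0.0411. The 3 groups shared 1 spread estimate per probe set, and it was on average below the variance of WSD and above that of WSD+T. Exact permutation of 3 against 3 arrays cannot go below p = 0.1 and was not used. Of the probe sets called in WSD vs control, 66.9% were lower (46.8% under median centring, 56.8% under quantile normalization, 50.3% under cyclic loess). For WSD+T vs WSD this share was 31.7% (60.0%, 51.7% and 57.0%). Median centring moved the median change of all tested probe sets from -0.08 to 0.05 in the former and from 0.09 to -0.05 in the latter. Markers of follicle cells were present. On control arrays the granulosa cell genes GATM and SERPINE2 had signals of 3443 to 4375 and 4155 to 5776, and the theca gene DLK1 1933 to 4332. Oocyte ZP3 had 151.7 to 297.1, and MOS, another oocyte gene, was below the filter.

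CYP17A1 was measured by the probe set MmuSTS.4193.1.S1_at. Its signal was 559.0, 612.2 and 800.1 on control arrays 1 to 3, 145.1, 295.5 and 168.2 on WSD arrays, and 382.7, 290.9 and 347.2 on WSD+T arrays. Control lay above both treated groups without overlap, and WSD replicate 2 overlapped the range of WSD+T. The mean went from 657 ± 127 (SD, n = 3) in control to 203 ± 81.0 in WSD, a log2 change of -1.67 (SE 0.26, limma's adjusted p = 0.00715), 3.17-fold lower. It passed in all 9 fits that left out 1 array (adjusted p 0.00548 to 0.0268). In WSD+T the mean was 340.3 ± 46.3, a log2 change from control of -0.91 (SE 0.26, 95% confidence interval -1.50 to -0.32, adjusted p = 0.116). This missed the threshold. It passed in 1 of 10 other settings, a fit to the control and WSD+T arrays alone (adjusted p = 0.0235). It also passed in 1 of 9 fits without 1 array, that without WSD replicate 2 (0.0284). In the rest, limma's adjusted p reached 0.315. Over all probe sets those 2 fits called 3245 and 1595, against 520 in the main fit. The difference between WSD+T and WSD was 0.76 (SE 0.26, interval 0.16 to 1.35, adjusted p = 0.145). It passed in 0 of 10 other settings and in 1 of 9 fits without 1 array. That was the fit without WSD replicate 2 (1.04, adjusted p = 0.0319). The order was thus control, WSD+T, WSD, with the latter pair not told apart by the test on all 9 arrays. A second CYP17A1 probe set, MmugDNA.37726.1.S1_at, lay between 1.37 and 6.53 on all 9 arrays, under the filter's signal of 21.2, and was not tested.

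Theca cell genes give the setting for CYP17A1. Of 11 theca markers, 7 had a probe set here and all 7 were tested. Their summed signal was 7108 to 10055 in control, 6015 to 7327 in WSD and 6616 to 7120 in WSD+T. PTCH1, the hedgehog receptor that theca cells carry, was the 1 theca marker called in WSD (-1.96, adjusted p = 0.00732) and in WSD+T (-1.54, adjusted p = 0.0460). At an unadjusted p under 0.05 there were 5 of 7 in WSD and 4 of 7 in WSD+T, and the median change of the list was -0.98 and -0.97. Of all 26383 tested probe sets, 8213 and 5066 were under that p in the same comparisons with control. Limma called 15.4% and 2.35% of all genes there, in either direction. The hedgehog target HHIP had an estimate of -1.54 in WSD (adjusted p = 0.0503), the hedgehog effector GLI1 -1.15 (0.0714) and DLK1 -0.98 (0.0739). TCF21 and NR2F2, also on the list, had estimates of -0.71 and -0.48 in WSD (limma's adjusted p = 0.276 and 0.0763). In WSD+T their estimates against control were above 0, at 0.84 and 0.20 (adjusted p = 0.306 and 0.538). STAR, which carries cholesterol into mitochondria in theca and luteinising cells, was 2513 ± 573 in control, 3193 ± 839 in WSD and 2384 ± 77.4 in WSD+T, and missed the threshold in each comparison (adjusted p = 0.349, 0.938 and 0.392). The part of theca cell number in the CYP17A1 values was not tested.

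HSD3B2 had the clearest stepwise pattern of the 5 genes. Its probe set MmugDNA.19420.1.S1_at gave 810.1, 1077 and 1040 on control arrays, 482.5, 497.9 and 408.0 on WSD arrays, and 172.4, 206.9 and 192.2 on WSD+T arrays. No group overlapped another. The coefficient of variation within a group was 14.8%, 10.4% and 9.08%, so the steps between groups were several times the spread within them. Means were 976 ± 145 in control, 463 ± 48.0 in WSD and 191 ± 17.3 in WSD+T (SD, n = 3).

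Against control, HSD3B2 fell by 1.04 on the log2 scale in WSD (SE 0.16, limma's adjusted p = 0.00683), 2.06-fold, and this passed in all 9 fits without 1 array. In WSD+T it fell by 2.26 (SE 0.16, interval -2.62 to -1.89, adjusted p = 0.00642), 4.78-fold. Among 26383 probe sets this was the smallest p of the comparison and the change ranked 19 from the most negative. Between WSD+T and WSD it fell by 1.21 (SE 0.16, adjusted p = 0.0182), 2.32-fold. The calls that involve WSD+T depended on single arrays. Against control the adjusted p was 0.0696 with replicate 1 of WSD+T left out and 0.101 with its replicate 3 left out, while the change was -2.19 and -2.26 and still had the smallest unadjusted p of all probe sets. Against WSD it was 0.125, 0.107 and 0.0791 without WSD+T replicates 1, 2 and 3, and 0.0619 without WSD replicate 1, with changes of -1.15 to -1.27. WSD+T replicates 1 and 3 correlated at 0.993, and with these averaged and counted once the adjusted p was 0.102 against control and 0.106 against WSD. A further probe set annotated to both HSD3B2 and LOC713156, a transcribed pseudogene in a RefSeq table of assembly T2T-MMU8v2.0, had signals of 1.07 to 7.02, below the filter. Probe sequences were not used here, so cross-hybridisation with near-identical genes of this family was not tested.

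**Figure D2:**
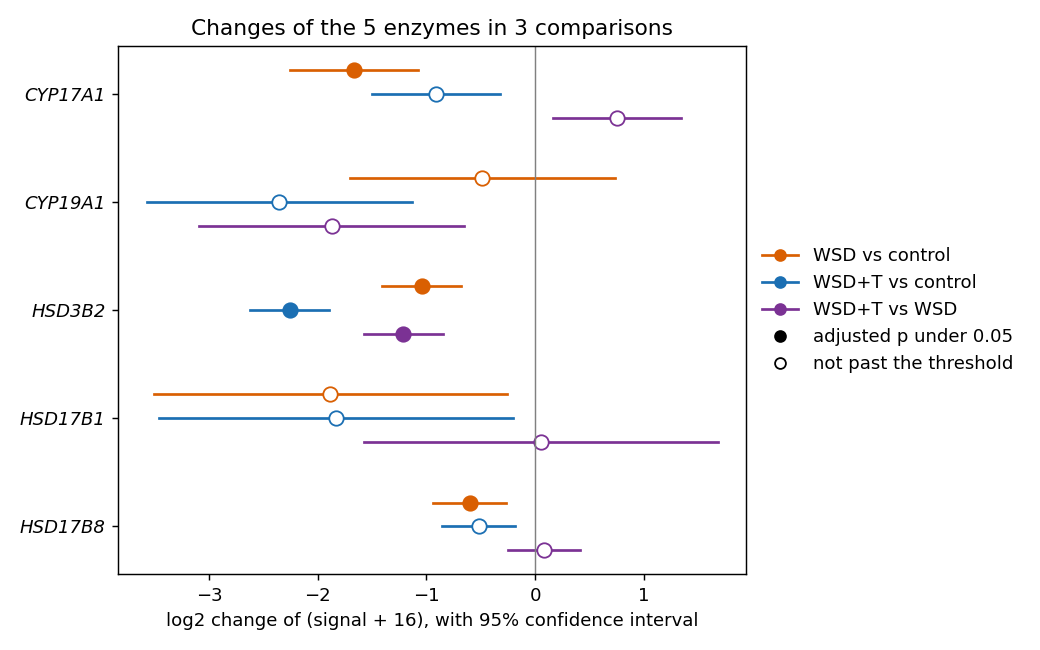
Log2 change of signal + 16 for each enzyme in the 3 comparisons, with the 95% confidence interval of the limma fit; filled points had an adjusted p under 0.05. HSD3B2 is the 1 gene with filled points in all 3 comparisons (-1.04, -2.26 and -1.21), and its intervals are narrow beside those of CYP19A1 and HSD17B1.

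CYP19A1 (Entrez gene 678697) was read by 1 probe set. Control arrays had signals of 184.9, 587.3 and 305.6, WSD arrays 523.8, 139.1 and 154.1, and WSD+T arrays 44.0, 38.1 and 73.9. All 3 WSD+T arrays were below every other array, though still above the filter's 21.2. The WSD arrays were split, with replicate 1 inside the control range and the others under it. The coefficient of variation was 57.5% in control, 80.0% in WSD and 36.9% in WSD+T, the widest of the 5 genes in each group. Means were 359 ± 206, 272 ± 218 and 52.0 ± 19.2 (SD, n = 3).

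The change in CYP19A1 after WSD+T was -2.35 against control (SE 0.54, interval -3.57 to -1.14, limma's adjusted p = 0.0650). That estimate ranked 14 from the most negative of all tested probe sets, but it missed the threshold. It passed without WSD replicate 1, 2 or 3 (adjusted p = 0.0413, 0.0400 and 0.0401) and in the fit to control and WSD+T alone (0.0179), where the spread of WSD does not enter. Leaving out a control or a WSD+T array gave 0.0737 to 0.242. The fit to control and WSD+T alone was the 1 of 9 other settings that passed (adjusted p up to 0.216). Against WSD the change was -1.87 (SE 0.54, interval -3.09 to -0.65, adjusted p = 0.0924). After WSD alone it was -0.48 (SE 0.54, interval -1.70 to 0.73, adjusted p = 0.570), and the estimate ranged from -1.06 without WSD replicate 1 to -0.07 without control replicate 2. The order of the means was control, WSD, WSD+T, and no neighbouring pair passed the test.

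HSD17B1, the oestradiol-forming enzyme of granulosa cells, was read by MmugDNA.19417.1.S1_at. Control arrays gave 1017, 828.2 and 1569, WSD arrays 589.7, 59.5 and 586.9, and WSD+T arrays 273.6, 341.5 and 281.0. Every treated array was below every control array. WSD replicate 2 was far below the other WSD arrays, which lay close together and above WSD+T. Means were 1138 ± 385, 412 ± 305 and 299 ± 37.2 (SD, n = 3).

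Neither change of HSD17B1 from control passed: it was -1.88 in WSD (SE 0.71, interval -3.51 to -0.26, limma's adjusted p = 0.112) and -1.83 in WSD+T (SE 0.71, interval -3.46 to -0.21, adjusted p = 0.218). Without WSD replicate 2, the WSD+T change was still -1.83 but passed (adjusted p = 0.0103), as in 1 of 9 fits without 1 array. It also passed in 1 of 10 other settings, the fit to control and WSD+T alone (0.00999). In the rest, limma's adjusted p reached 0.482. Over all probe sets those 2 fits called 1595 and 3245, against 520 in the main fit. The WSD change without WSD replicate 2 was -0.88 (adjusted p = 0.0594), and without WSD replicate 3 it was -2.38 (0.0475). WSD+T against WSD was 0.05 (SE 0.71, interval -1.57 to 1.68, adjusted p = 0.977) with all arrays and -0.95 without WSD replicate 2 (0.0687). The interval is wide, so no likeness of the treated groups can be read from it.

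Several other granulosa cell genes were also low on WSD replicate 2. NR5A2, a nuclear receptor that regulates granulosa steroidogenesis, had a signal of 653.4 there and 2058 and 2168 on the other WSD arrays. GATM, a creatine-synthesis enzyme used as a granulosa marker, had 2160 there against 3668 and 4203. SERPINE2, a protease inhibitor of granulosa cells, had 3535 against 5054 and 4823. The granulosa marker INHBA was not low there, with 2186 against 2113 and 1760. Of 13 granulosa markers, 9 had a probe set, all 9 of them tested, and their summed signal was 14140 to 17849 in control, 13560, 8974 and 14058 on the WSD arrays, and 11723 to 13433 in WSD+T. INHA, INHBB and IHH fell and INHBA rose in WSD, and INHA and INHBB fell in WSD+T. Over all genes, 10.7% were called lower and 4.74% higher in WSD, and 1.73% and 0.62% in WSD+T. The macrophage and myeloid markers were highest on WSD replicate 2. Their 13 measured members summed to 27145 there, 19203 and 1141 on WSD replicates 1 and 3, 2092 to 10922 in control and 17315 to 19558 in WSD+T. ITGAM was the 1 myeloid marker below the filter, and limma called 0 of 12 tested in each comparison (0, 4 and 0 at an unadjusted p under 0.05). Of all 26383 tested probe sets, 8213, 5066 and 5523 were under that unadjusted p. Mitosis markers, which mark dividing cells, fell for 5 of 7 members in both treated groups against control, with summed signals of 7746 to 10205 in control, 3731 to 4805 in WSD and 3844 to 4671 in WSD+T, beside the same 10.7% and 1.73% of all genes called lower. Oocyte markers summed to 518.0 to 1093, 1008 to 1519 and 1239 to 1414, and endothelial markers to 1125 to 1723, 618.1 to 3791 and 2061 to 2372. Of 7 tested oocyte markers, ZP4 rose in WSD (1.04, adjusted p = 0.0310) and FIGLA in WSD+T (1.93, adjusted p = 0.0380). Smooth muscle and stromal markers summed to 6738 to 7956, 6128 to 8435 and 8141 to 9718. Of 6 tested, the stromal proteoglycan LUM fell in WSD (-4.22, adjusted p = 0.00296) and was higher in WSD+T than in WSD (2.89, adjusted p = 0.0205), and the smooth muscle gene TAGLN rose in WSD (0.93, adjusted p = 0.0342). The part of these differences in cell content in the enzyme values was not tested.

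**Figure D3:**
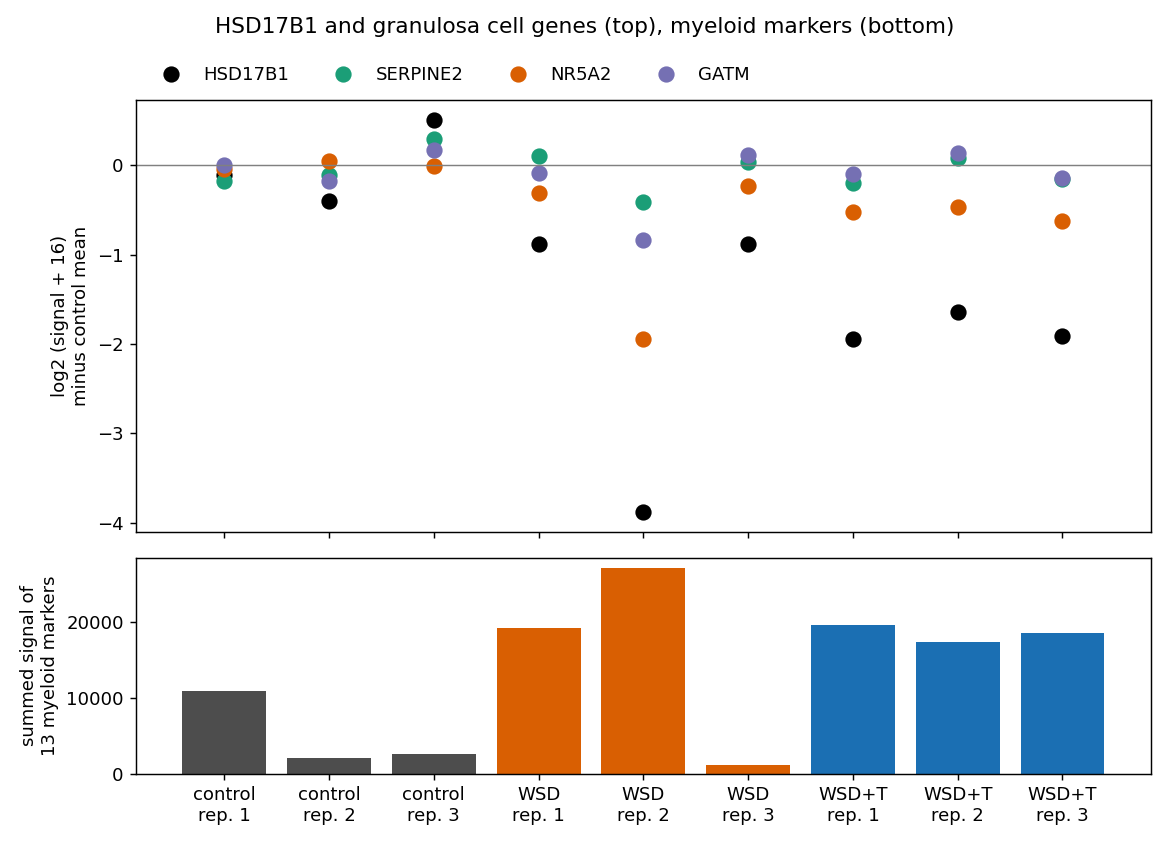
Top: log2(signal + 16) of HSD17B1 and the granulosa cell genes SERPINE2, NR5A2 and GATM on each array, minus the gene's control mean. Bottom: summed linear signal of 13 myeloid markers on the same arrays. WSD replicate 2 holds the lowest value of all 4 genes (-3.88 for HSD17B1, -1.94 for NR5A2) and the highest myeloid sum (27145).

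HSD17B8 varied least in control of the 5 genes. Its probe set MmugDNA.28678.1.S1_at gave 405.5, 428.5 and 409.2 on control arrays, 298.6, 277.4 and 231.2 on WSD arrays, and 249.7, 315.3 and 290.9 on WSD+T arrays. Control did not overlap with either treated group, and the treated groups overlapped each other. Means were 414 ± 12.3, 269 ± 34.5 and 285 ± 33.1 (SD, n = 3). In WSD it fell by 0.60 on the log2 scale (SE 0.15, limma's adjusted p = 0.0295), 1.52-fold. That call was lost without control replicate 1, 2 or 3 (adjusted p = 0.0652, 0.0858 and 0.0702), without WSD+T replicate 3 (0.0594), and under median centring (0.0632) and cyclic loess (0.0629). In WSD+T the change from control was -0.52 (SE 0.15, interval -0.85 to -0.19, adjusted p = 0.112). It passed in 1 of 10 other settings, the fit to those 2 groups alone (0.0413), and in 0 of 9 fits without 1 array. WSD+T against WSD was 0.08 (SE 0.15, interval -0.25 to 0.42, adjusted p = 0.810), so differences below -0.25 and above 0.42 lie outside the interval.

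Over the members, limma called 3 of 5 lower and 0 higher in WSD vs control (4 lower and 0 higher at an unadjusted p under 0.05). Of all tested probe sets, 9.68% were called lower and 4.78% higher there, 14.5% in all. Groups did not overlap for 4 of 5 members, against 20.2% of all probe sets lower in that way. In WSD+T vs control 1 of 5 was called lower and 0 higher (5 and 0 unadjusted), beside 1.43% of all probe sets called lower and 0.542% higher, 1.97% in all. All 5 members lay below control without overlap, against 18% of all probe sets. The median change of the members was -1.04 and -1.83 in these comparisons, beside -0.08 and -0.01 over all genes tested. In WSD+T vs WSD 1 of 5 was called lower and 0 higher (2 and 1 unadjusted), beside 0.948% called lower and 2.04% higher, 2.99% in all, and 2 of 5 did not overlap, beside 10.9%. The median was 0.05 for the members and 0.09 for all genes. Of all 26383 tested probe sets, 8213, 5066 and 5523 had an unadjusted p under 0.05 in these 3 comparisons, in either direction. Both comparisons with control use the same control arrays, and the members were chosen with earlier results known.

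The enzymes did not change by equal amounts on the same array. In a difference of log2 values between 2 genes of 1 array, the scaling of that array largely cancels. With the control mean set to 0, CYP17A1 minus HSD3B2 was 0.04, -0.23 and 0.19 on control arrays, -1.06, -0.16 and -0.64 on WSD arrays, and 1.65, 1.03 and 1.37 on WSD+T arrays. CYP17A1 had thus lost more than HSD3B2 on each WSD array relative to the control mean, and less on each WSD+T array, and the WSD+T values lay above all others. WSD replicate 2, at -0.16, lay inside the control range. No test was run on these differences.

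Differences were taken for every pair of the 5 enzymes, and only some pairs are given here. For most pairs control and WSD overlapped. Among all pairs, HSD3B2 minus HSD17B8 gave the tightest groups. It was -0.22, 0.10 and 0.12 on control arrays, -0.53, -0.39 and -0.42 on WSD arrays, and -1.69, -1.77 and -1.75 on WSD+T arrays, with an SD of 0.19, 0.08 and 0.04. The 3 groups did not overlap, which held for no other pair. CYP19A1 minus HSD17B8 separated WSD+T (-1.80, -2.27 and -1.43) from the other arrays, which spread from -0.73 to 1.12. CYP17A1 minus CYP19A1 was 1.76, 1.53 and 1.04 in WSD+T, above all control and WSD arrays, the highest of which was 0.54.

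**Figure D4:**
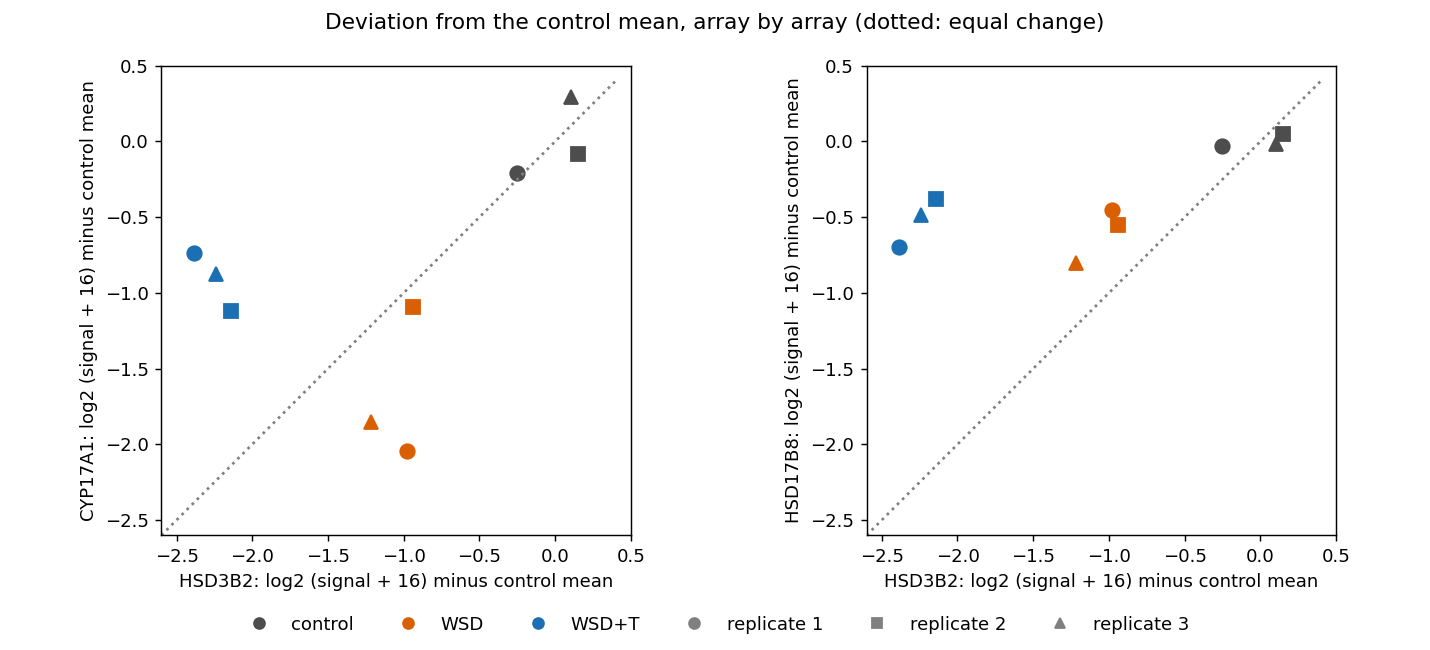
Deviation of log2(signal + 16) from the control mean for HSD3B2 (both x axes) against CYP17A1 (left) and HSD17B8 (right), 1 point per array, with a dotted line where both genes change equally. WSD+T arrays lie above the line in both plots (CYP17A1 minus HSD3B2 of 1.03 to 1.65), whereas the WSD arrays lie below it for CYP17A1 (-1.06 to -0.16).

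The other genes of the pathway were taken from lists of general knowledge. The lists held 62 genes, of which 24 could not be matched by symbol, 9 were below the filter and 29 were tested. Each counts by its brightest probe set. Limma called 2 of 29 in WSD vs control, both higher and none lower (2 and 5 at an unadjusted p under 0.05), where 15.4% of all genes were called (10.7% lower and 4.74% higher). In WSD+T vs control it called 0 of 29 (4 higher and 1 lower unadjusted), where 2.35% were called (1.73% lower and 0.62% higher). Between WSD+T and WSD it called 1 of 29, lower, where 2.85% were called (0.79% lower and 2.06% higher). Of all 26383 tested probe sets, 8213, 5066 and 5523 had an unadjusted p under 0.05 in the 3 comparisons. The median change of the 29 genes was -0.04, -0.02 and 0.08, beside -0.08, -0.01 and 0.09 over all genes. Without WSD replicate 3 the counts were 5, 1 and 3, and without WSD replicate 2 they were 3, 1 and 2. In the fit to control and WSD+T alone the second count was 4. No test set these counts against those of the 5 enzymes.

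The first role took in cholesterol import (STAR, STARD3 and TSPO) and electron transfer to the side-chain cleavage enzyme (FDX1 and FDXR). Limma called 0 of 5 there in each comparison (1, 0 and 0 at an unadjusted p under 0.05). Over all genes, 15.4%, 2.35% and 2.85% were called, so 0 calls in lists this small say little. CYP11A1, the side-chain cleavage enzyme itself, could not be matched by symbol. FDXR, the reductase that feeds electrons to the mitochondrial P450, had a log2 change of -0.64 in WSD (SE 0.28, adjusted p = 0.151) and -0.55 in WSD+T (SE 0.28, adjusted p = 0.313) against control. The electron donors of CYP17A1 and CYP19A1 in the endoplasmic reticulum also had 0 of 3 called in each comparison, with none under 0.05 unadjusted. These counts hold for the brightest probe set of each gene. Other probe sets of FDX1 and POR were called and are given under the other observations. POR, the reductase of all microsomal P450 enzymes, was 729 ± 102, 691 ± 191 and 686 ± 37.7, and CYB5A, which promotes the lyase step of CYP17A1, was 2439 ± 377, 2365 ± 395 and 1937 ± 79.2. The other hydroxysteroid dehydrogenases tested were the multifunctional peroxisomal HSD17B4 and the sterol-synthesis enzyme HSD17B7. Their changes ran from -0.02 to 0.21 over the 3 comparisons, and neither was called (0 of 2 also unadjusted). HSD17B2, which inactivates oestradiol, had mean signals of 1.22 to 1.43 and was below the filter.

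CYP1B1, which hydroxylates oestrogens to catechol oestrogens, rose in WSD. Its mean went from 938 ± 131 in control to 2266 ± 456 in WSD and was 1246 ± 48.2 in WSD+T. The log2 change was 1.25 in WSD (SE 0.18, limma's adjusted p = 0.00539) and 0.41 in WSD+T (adjusted p = 0.249), and the drop from WSD to WSD+T was -0.84 (adjusted p = 0.0460). The increase passed in all 9 fits without 1 array, and in all 10 other settings. The difference between WSD+T and WSD passed in 2 of 9 such fits and in 3 of 10 other settings (adjusted p 0.0303 to 0.163). It was lost without control replicates 1, 2 or 3 (0.0723, 0.0567 and 0.0572), without WSD replicate 1 (0.103) and without WSD+T replicates 1, 2 or 3 (0.182, 0.164 and 0.145). The 2 other tested probe sets of CYP1B1 were called in the same comparisons (1.41 and 1.73 in WSD vs control, -1.28 and -1.93 in WSD+T vs WSD).

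Among regulators, CREM, a cyclic AMP-responsive transcription factor, rose from 251 ± 24.9 to 734 ± 222 in WSD (1.45, SE 0.22, limma's adjusted p = 0.00634). It was 370 ± 2.06 in WSD+T (0.53, adjusted p = 0.232). This change passed in 1 of 10 other settings, the fit to control and WSD+T alone (0.0321), and in 0 of 9 fits without 1 array. Between WSD+T and WSD the change of CREM was -0.91 (adjusted p = 0.0597). Of 12 tested transcription factors, CREM was the only one called in any comparison, on the probe set with the highest mean. In WSD vs control 15.4% of all genes were called. There 10 of the 12 had estimates below 0 (median -0.35), beside 57.2% of all tested probe sets (median -0.08). NR5A1, a principal activator of steroidogenic genes, was 34.1 ± 11.9 in control, 18.7 ± 8.08 in WSD and 17.1 ± 2.05 in WSD+T (adjusted p = 0.137 and 0.205). Both treated means of NR5A1 lay under the filter's signal of 21.2, where the scale used understates a fold change. The tested receptors IGF1R, ESR2 and PGR had 0 of 3 called in each comparison, and none under 0.05 unadjusted. Over all genes, 15.4%, 2.35% and 2.85% were called in the 3 comparisons.

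**Figure D5:**
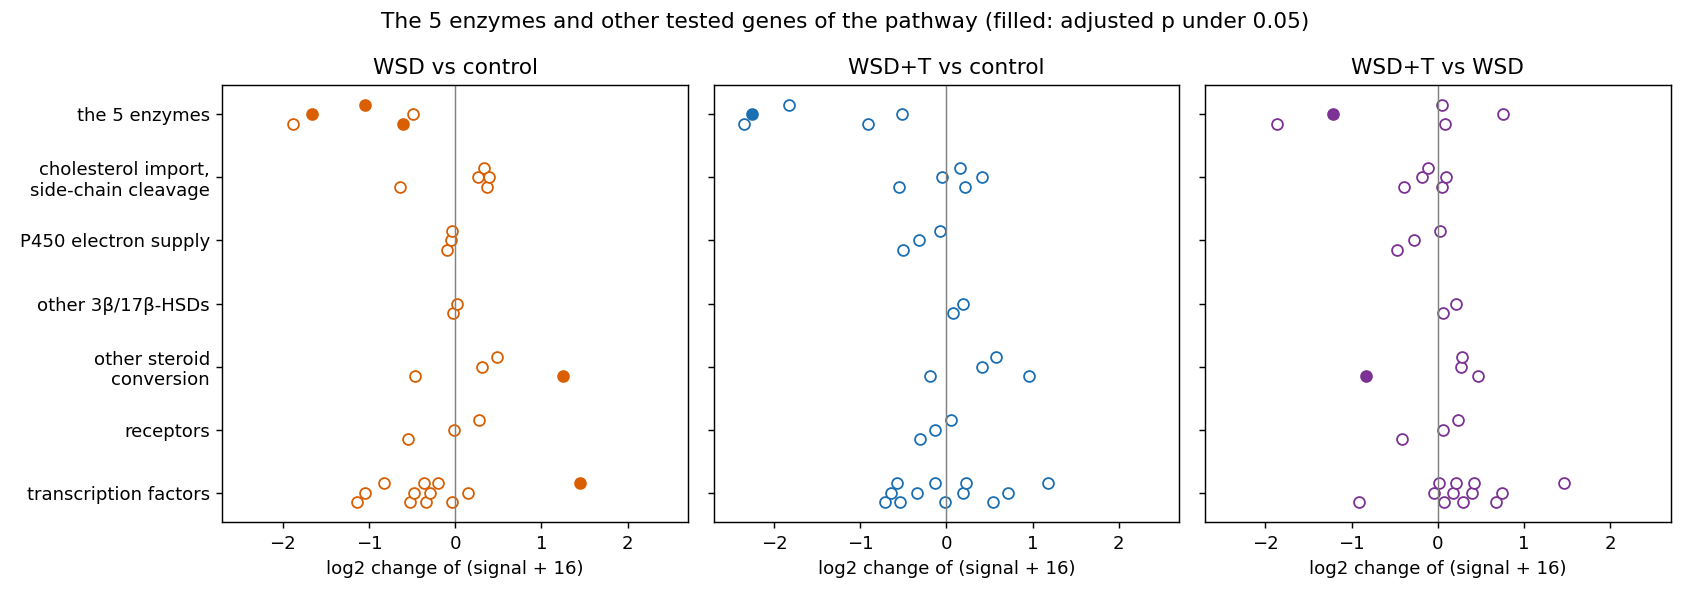
Log2 change of signal + 16 for the 5 enzymes and the 29 other tested genes of the pathway, 1 point per gene, by role and comparison; filled points had an adjusted p under 0.05 and the vertical offset only separates points. Filled points are 3 enzymes, CYP1B1 and CREM in WSD vs control, HSD3B2 in WSD+T vs control, and HSD3B2 and CYP1B1 in WSD+T vs WSD.

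The genes whose signal over the 9 arrays was most like that of each enzyme were found by Pearson's r of log2(signal + 16) over all tested probe sets. These values describe the arrays and carry no p, since r is high for the best of 26383 probe sets and the groups shape it. For HSD3B2 they were WEE1 (r = 0.987), RRM1 (0.977), BCAT2 (0.974), LOC717842 (0.974) and LOC695949 (0.973). WEE1 is a cell cycle kinase that was 293 ± 8.69, 203 ± 13.2 and 135 ± 9.57 in control, WSD and WSD+T, and RRM1, a subunit of ribonucleotide reductase, was 296 ± 27.9, 199.6 ± 25.0 and 127 ± 8.71. Both had their means in the same order as HSD3B2. For CYP17A1 they were BCS1L (0.985), PCYOX1L (0.982), VPS54 (0.978), DEGS1 (0.977) and DHX29 (0.971), and PCYOX1L went from 892 ± 121 in control to 257 ± 93.8 in WSD and 438 ± 51.8 in WSD+T.

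For HSD17B1 the closest were PTPRF (0.994), EML5 (0.985), ME3 (0.984), DLGAP5 (0.982) and SERPINE2 (0.982, on a second probe set of that gene). SERPINE2 is one of the granulosa markers named above, but its brightest probe set changed by -0.09 in both treated groups. For CYP19A1 they were TMEM254 (0.964), RALB (0.959), COPS3 (0.945), TAF11 (0.930) and OSER1 (0.925). For HSD17B8 they were SDHAF4 (0.978), an assembly factor of succinate dehydrogenase, GUCD1 (0.972), GFM2 (0.963), CDCA3 (0.963) and ARMC9 (0.963). With the group means subtracted, r for the 5 closest genes was 0.394 to 0.738 for HSD3B2, 0.811 to 0.906 for CYP17A1, 0.765 to 0.921 for CYP19A1, 0.784 to 0.902 for HSD17B8 and 0.973 to 0.997 for HSD17B1, whose most extreme value was on WSD replicate 2.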

How the data were processed

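RNA of 9 samples was hybridised to single-colour Affymetrix arrays after NuGEN amplification, per the labels' protocols. The authors deposited linear signal intensity values per probe set, made with MAS5 per the submitters' processing notes; its version, settings and genome build are not given in the sources used here. Groups came from the sample titles, which call replicates biological. Of 52865 probe sets, 99 controls were left out, and of the rest 24956 had 1 symbol in the array annotation, 361 several and 27449 none listed. Values were analysed as log2(signal + 16). Probe sets at or above the median mean (26383, for 10002 named genes) were fitted with 1 mean per group in limma 3.58.1 (R 4.3.3; lmFit, eBayes; 6 residual and 2.69 prior degrees of freedom), with Benjamini-Hochberg adjustment per comparison and a threshold of 0.05. Where a gene had several tested probe sets, the brightest on average stood for it. The code was tested on simulated data. Named were all members, the called genes of the pathway lists with others of those lists, and the 5 most alike genes per member. The members and lists were chosen with earlier results of these data known. Figures used matplotlib 3.10.9.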

Additional observations from a re-analysis of the deposited data

How the results depend on the processing

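Each change was recomputed under 10 other settings and without each array in turn. The changes of CYP17A1 and HSD3B2 in WSD vs control passed in all of them. CYP19A1 could not be tested with the filter at the 75th percentile, where its mean is too low. HSD17B8 in WSD vs control (-0.60) missed the threshold at -0.47 under median centring, -0.49 under cyclic loess, and -0.60 with only the 2 groups compared, with the replicate block and with WSD+T replicates 1 and 3 averaged; without single arrays it was -0.68 to -0.50. With only the 2 groups compared, the WSD+T vs control changes of CYP17A1 (-0.91), CYP19A1 (-2.35), HSD17B1 (-1.83) and HSD17B8 (-0.52) passed, and without single arrays the first 3 were -1.02 to -0.76, -2.73 to -1.94 and -2.03 to -1.58. HSD3B2 in WSD+T vs control missed it at -2.23 with the WSD+T arrays averaged (-2.38 to -2.18 without single arrays), and in WSD+T vs WSD at -1.21 with only the 2 groups or the replicate block and -1.18 with those arrays averaged (-1.30 to -1.15). Without single arrays, HSD17B1 in WSD vs control was -2.38 to -0.88 and CYP17A1 in WSD+T vs WSD 0.56 to 1.04. In WSD+T vs WSD, HSD17B1 changed sign to -0.051 with a pseudocount of 64, -0.085 under median centring, -0.015 under quantile normalization and -0.018 under cyclic loess (-0.95 to 0.55 without single arrays), and HSD17B8 to -0.057, -0.013 and -0.017 under the same 3 normalizations (-0.018 to 0.17). The causes were not tested.

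Probe sets called in WSD vs control numbered 3817, and 2398 with the stricter filter, 913 with 2 groups, 2220 with the replicate block and 2544 with WSD+T arrays averaged (1735 to 6628 without single arrays). In WSD+T vs control 520 became 3245, 3 and 0 under the last 3 settings (0 to 1777). Between WSD+T and WSD 789 became 300 under median centring, then 9, 1 and 0 (0 to 1548). At 0 calls, 3055 and 3935 had an unadjusted p under 0.05 with the WSD+T arrays averaged. The replicate block is only a check. Of 9 same-numbered pairs, 4 had deviations correlated over 0.1 and the lowest was -0.30. Deviations from a mean of 3 arrays are tied to each other, so these values cannot decide whether the numbers pair the samples. The alternatives for CYP1B1, CREM and the pathway counts were added after seeing the data. CYP1B1 in WSD+T vs WSD missed the threshold with a pseudocount of 1 (adjusted p = 0.0559), no filter (0.0521), quantile normalization (0.0678), cyclic loess (0.0619), 2 groups (0.0849), the replicate block (0.0855) and WSD+T arrays averaged (0.163). Pathway genes called numbered 2 to 5 without single arrays in WSD vs control, 0 to 1 in WSD+T vs control (4 with 2 groups), and 0 to 3 between WSD+T and WSD, both without single arrays and under the other settings.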

Other observations

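Several pathway genes had a called probe set besides the one with the highest mean. The genes below were chosen after their values were seen, since their brightest probe set was not called in the same comparison. FDX1, the ferredoxin that passes electrons to the mitochondrial P450 enzymes, had 3 tested probe sets, of which 1 was called. That probe set rose from 542 ± 44.8 in control to 1258 ± 197 in WSD and was 702 ± 54.5 in WSD+T (SD, n = 3). Its log2 change was 1.18 in WSD vs control (limma's adjusted p = 0.00434) and -0.82 in WSD+T vs WSD (adjusted p = 0.0368), whereas the brightest FDX1 probe set changed by 0.27 and -0.11 (adjusted p = 0.242 and 0.728). Of 4 tested probe sets of POR, 1 was called. It fell in WSD by 0.64 (adjusted p = 0.0236), and the brightest one changed by -0.10 (adjusted p = 0.769). For GATA4, a transcription factor of granulosa and theca cells, 1 of 3 tested probe sets was called. It fell in WSD by 0.94 (adjusted p = 0.0311), and the brightest one had a similar estimate of -1.05 (adjusted p = 0.0916). For NR2F2, a theca and stromal nuclear receptor, a second probe set was higher in WSD+T than in WSD by 1.27 (adjusted p = 0.0379), and its brightest one by 0.68 (adjusted p = 0.0580). For CREM, another probe set changed by -1.31 in WSD+T vs WSD (adjusted p = 0.0376), and its brightest one by -0.91 (adjusted p = 0.0597). Which transcripts these probe sets read was not tested.

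The RefSeq table of assembly T2T-MMU8v2.0 gives the coding genes beside each enzyme. WBP1L next to CYP17A1, COASY next to HSD17B1 and RING1 next to HSD17B8 were tested, and none was called in the 3 comparisons (lowest adjusted p = 0.0923, for WBP1L in WSD+T vs WSD). HAO2 next to HSD3B2 and NAGLU next to HSD17B1 were below the filter.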
